A study of Mus musculus with 2 samples.

Results

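The middle of the Mir379 to Mir410 microRNA cluster on mouse chromosome 12 was described in cortex tissue from small RNA sequencing. Its 10 members, out of 2202 microRNA genes in the count files, were taken by gene symbol: Mir666, Mir543, Mir495, Mir667, Mir376c, Mir654, Mir376b, Mir376a, Mir300 and Mir381. The data came from 2 libraries of 1 group, the left cerebral cortex of B6CASTF1/J male mice aged 14 days, made from total RNA with a size range below 30 in the labels. B6CASTF1/J is a first-generation cross between C57BL/6 and CAST mice. Both libraries carry the same donor label with separate tissue records, the tissue description reads 3x Males, and the labels do not say whether animals were pooled or whether the libraries came from separate animals. An SD over the 2 libraries therefore measures how far these samples lie apart, which may be technical in part or in whole. No condition was compared, so the members' levels, their order, their sequences and their split between the libraries are described.

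A microRNA gene gives a hairpin RNA that is cut into mature strands of its 5p and 3p arms. The seed, the stretch after the first base of a mature strand, guides it to target messenger RNAs. The hairpins of the Mir379 to Mir410 cluster are known to be made from the maternal chromosome as part of the imprinted Dlk1-Dio3 region and to be abundant in brain. In neurons the transcription factor Mef2 is known to drive the cluster, which takes part in dendrite growth. Transcripts of the miR-376 paralogs, and of miR-381, are known substrates of A-to-I editing in brain. In this process ADAR enzymes turn adenosine into inosine, which is read as guanosine, often in the sequence UAG.

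The members' mature sequences show which of them can be told apart by short reads and where the seeds of paralogs differ. The RefSeq microRNA table (GRCm38.p6) matched all 10 members and gave 19 mature sequences, both arms for 9 members and the 5p arm for Mir376c. The miR-376 arms are printed first because the paralogs are most alike there, then 2 further pairs of 3p arms with close sequences. All lie on the plus strand, are written 5′ to 3′, and carry the seed (bases 2 to 8) in capitals.
miR-376a-5p (chr12:109723786-109723807): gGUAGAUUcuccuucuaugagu
miR-376b-5p (chr12:109723471-109723492): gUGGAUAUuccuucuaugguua
miR-376c-5p (chr12:109722733-109722754): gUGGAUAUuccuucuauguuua
miR-376a-3p (chr12:109723824-109723844): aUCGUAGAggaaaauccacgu
miR-376b-3p (chr12:109723508-109723528): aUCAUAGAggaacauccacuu
miR-300-3p (chr12:109724363-109724384): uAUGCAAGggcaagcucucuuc
miR-381-3p (chr12:109726870-109726891): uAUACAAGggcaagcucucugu
miR-543-3p (chr12:109717304-109717325): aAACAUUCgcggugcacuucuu
miR-495-3p (chr12:109718795-109718816): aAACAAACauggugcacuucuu

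Among the paralogs, miR-376b-5p and miR-376c-5p shared the seed UGGAUAU and were identical over their first 18 bases. Their single difference was G19U, with the base of miR-376b-5p first and positions counted from 1 at the 5′ end. No other mature sequence in the table had that seed. The seed of miR-376a-5p was another one, GUAGAUU. The 3p arms of miR-376b and miR-376a differed by A4G, C13A and U20G, so their seeds were not the same. Between miR-381-3p and miR-300-3p the differences were A4G, G21U and U22C. Over their first 20 bases these 2 arms thus differed at 1 base, an A in miR-381-3p and a G in miR-300-3p. The arms miR-543-3p and miR-495-3p were identical at 18 of 22 bases, and all 4 differences (U6A, U7A, G9A and C10U) lay at bases 6 to 10. Of the 19 seeds, only 3 were found in another microRNA: those of miR-376b-5p and miR-376c-5p, and that of miR-495-3p, which miR-1192 and miR-12200-5p also had. Of all 1679 mature sequences in RefSeq's table, 468 (27.9%) had a seed found in another one.

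The letters UAG lay inside the seed of 3 of the 19 member sequences (15.8%), read on the strand of the microRNA. In miR-376a-5p they began at base 3, and in miR-376a-3p and miR-376b-3p at base 5. The 3p arm of Mir376c is not among the 19 sequences, so its seed was not examined. Over all 1679 mature sequences 92 seeds (5.48%) held UAG. All 3 member seeds are of miR-376 paralogs, whose editing was known when the members were listed. The 2 shares are thus not an independent comparison. Changing 1 seed base from A to G turned the seed of a member into that of another member in 2 cases, both A4G: miR-376b-3p to miR-376a-3p and miR-381-3p to miR-300-3p. In neither case was the changed A part of a UAG. The UAG of miR-376b-3p began 3′ of it, at base 5, and the seed of miR-381-3p held none. In 6 further pairs a change of 1 seed base from A to G led from a member's seed to that of a microRNA outside the members. How often this occurs over all mature sequences was not counted. The deposited counts are per hairpin, and no file used here separates edited from unedited reads, 5p from 3p reads or the alleles of the parent strains. No source used here states whether reads that differ from the reference at a base were counted.

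The 10 hairpins lie on the plus strand of mm10 chromosome 12 between 109717085 and 109726896. In GENCODE M21, the annotation of the files, none of them overlaps a gene other than a microRNA gene. The annotated non-coding gene Mirg begins at 109729764, which is 2867 bases beyond the last member. Mir666 (109717085 to 109717183) and Mir543 (109717258 to 109717333) are 74 bases apart, the shortest gap among members. Mir376c (109722718 to 109722803), Mir654 (109723218 to 109723301), Mir376b (109723458 to 109723539) and Mir376a (109723781 to 109723848) follow each other with gaps of 414, 156 and 241 bases. Mir376a alone has an annotated microRNA gene on the opposite strand, Gm25252 (109723756 to 109723875).

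The hairpins differed widely in base composition. GC content ran from 29.1% in Mir376c to 64.6% in Mir666, with a median of 41.7% over the 10 members and 51.9% over the 406 microRNA genes detected in the data. The predicted folding energy ran from -16.6 kcal/mol in Mir376a to -46.9 kcal/mol in Mir666. Mir376b and Mir376c shared a stretch of 31 bases that covers 18 bases of their 5p arms, and Mir376b and Mir487b shared 20 bases that cover 9 bases of the 3p arm of Mir376b. The other 8 members shared no stretch of 18 bases with a microRNA gene elsewhere, while 51.5% of all 2202 genes did. None of the 19 mature sequences was found in a GENCODE transcript of another gene. The genome outside annotated transcripts was not searched, so further copies there, of any member, were not looked for. Reads that matched several genomic positions are listed apart from the gene counts, so the counts of Mir376b and Mir376c can be too low, and their levels are uncertain.

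Replicate 1 held 4111167 counts in microRNA genes and replicate 2 held 3189903, which were 36.6% and 36.4% of the reads. Reads that matched several positions made up 39.1% and 41.4%. The part of them that belongs to the members was not tested. MicroRNAs named for neurons held 14.5% ± 0.750 of the counts (SD, n = 2) with 10 of 14 detected, against 0.270% ± 0.0235 for oligodendrocytes, 1.18% ± 0.193 for endothelium and 0.191% ± 0.00957 for leukocytes. Lists named for liver, muscle, Hox clusters and erythroid cells held at most 0.00689% each as a mean of the 2 libraries. The lists hold from 1 to 14 genes, and reads that matched several positions are left out of these shares. Fewer cells of a type, less microRNA per cell and reads left out in this way cannot be told apart in these tissue counts.

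The members were well detected but not among the leading microRNAs of the cluster. With a minimum of 10 counts in each library, 9 of the 10 were detected, against 18.4% of all 2202 genes. Detection was not particular to the members: 10 of the cluster's 11 hairpins before them and 15 of the 17 after them were also detected. The members together held 34795 counts in replicate 1 and 25700 in replicate 2. These were 0.846% of all counts in replicate 1 (exact Clopper-Pearson 95% interval 0.838 to 0.855%), and in replicate 2 the share was 0.806% (0.796 to 0.816%), giving 0.826% ± 0.0288 (SD, n = 2). Intervals cover counting error only, here and below that of reads taken as independent. PCR copies of a molecule cannot be recognised here, so the intervals can be too narrow. Levels are given as CPM, counts on the strand of the gene scaled to 1000000 counts in microRNA genes; a small RNA read spans the mature strand, so no division by length was made. The ease with which a strand is captured can differ between microRNAs, so an order of levels is an order of counts. By mean CPM 5 members stood above 1000 and 4 between 100 and 1000.

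**Figure D1:**
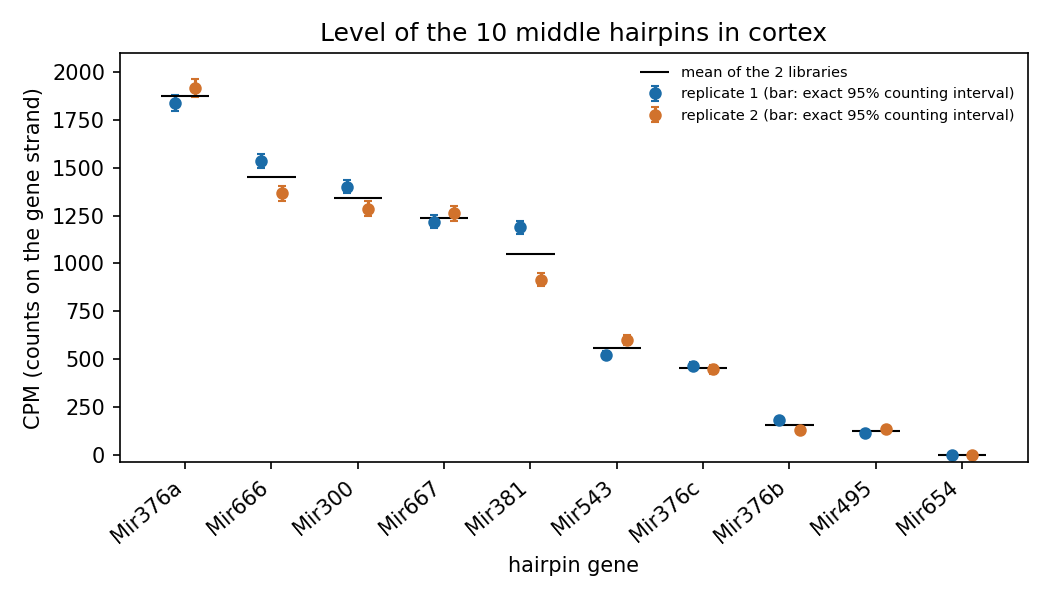
Level of each of the 10 members in CPM (vertical axis) by gene (horizontal axis, ordered by mean). Points are the 2 libraries with exact 95% counting intervals and lines are means; Mir376a lies highest at 1838 and 1916 CPM, and Mir654 is at 0 in both.

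Mir376a, the paralog whose edited 5p strand is known to target Prps1, an enzyme of purine synthesis, was the most abundant member. It had 7558 counts (1838 CPM) in replicate 1 and 6113 counts (1916 CPM) in replicate 2, a mean of 1877 ± 55.1 CPM (SD, n = 2). Its range lay above that of every other member, and it ranked 78 among the 406 detected genes. All its reads were on its own strand: Gm25252, on the opposite strand, had 0 counts on its own strand in both libraries. In counts that ignore strand Mir376a is listed at 0. So are Mir299a, Mir380, Mir539 and Mir409, the cluster's other plus-strand hairpins with a microRNA gene on the opposite strand. How reads in such overlaps were counted is not stated in the sources used here.

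Mir376c had 1900 counts (462 CPM) in replicate 1 and 1422 counts (446 CPM) in replicate 2. Mir376b, which is known to target autophagy genes, had 755 counts (184 CPM) and 419 counts (131 CPM). The levels of the 3 paralogs did not overlap, in the order Mir376a, Mir376c and Mir376b in both libraries. Mir376a had 3.98 times the counts of Mir376c in replicate 1 (exact 95% interval 3.78 to 4.19), a ratio that was 4.30 in replicate 2 (4.06 to 4.56). Over Mir376b the ratio was 10.01 (9.29 to 10.8) and 14.6 (13.2 to 16.1), so this ratio differed between the libraries by more than counting error. Because Mir376b and Mir376c can lose 5p reads to their shared stretch, these ratios are uncertain. Together the paralogs held 29.4% of the members' counts in replicate 1 and 30.9% in replicate 2, or 30.2% ± 1.13 (SD, n = 2). Without Mir376a the other two held 9.57% of the counts of the 9 members left.

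Mir300 and Mir381, whose 3p arms differ at 1 of their first 20 bases, had similar but not equal levels. Mir300 had 5764 counts (1402 CPM) in replicate 1 and 4104 counts (1287 CPM) in replicate 2. Mir381, one of the cluster's microRNAs linked to dendrite growth, had 4889 counts (1189 CPM) and 2917 counts (914 CPM). Mir300 was higher in both libraries, and the ranges did not overlap. The ratio of Mir300 to Mir381 was 1.18 (exact 95% interval 1.13 to 1.23) in the first library and 1.41 (1.34 to 1.48) in the other. This ratio thus differed between the libraries by more than counting error. Whether reads changed at the base where these arms differ were counted, and for which hairpin, is not stated. The ratio is therefore uncertain.

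Mir666 and Mir667, the GC-rich hairpins among the members, stood with Mir300 in the upper group. Mir666 had 6313 counts (1536 CPM) in replicate 1 and 4358 counts (1366 CPM) in replicate 2. Mir667 had 5008 counts (1218 CPM) and 4024 counts (1261 CPM), the smallest SD among the 5 members above 1000 CPM (1240 ± 30.6 CPM, n = 2). Mir666 and Mir300 were neighbours in the order of levels, and their ranges overlapped.

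Mir543, a microRNA linked to neurogenesis through N-cadherin, and Mir495, known to target the neurotrophin Bdnf, were lower. Mir543 had 2138 counts (520 CPM) in replicate 1 and 1911 counts (599 CPM) in replicate 2. Mir495 had 470 counts (114 CPM) and 432 counts (135 CPM). Both were higher in replicate 2 in CPM, and the ratio between them moved by less than counting error, from 4.55 (exact 95% interval 4.11 to 5.04) to 4.42 (3.98 to 4.92). Mir666 lies 74 bases from Mir543 and had 2.95 times its counts in replicate 1 and 2.28 times in replicate 2. Mir495 overlapped in its range with Mir376b, its neighbour in the order, and no other neighbours than these and Mir666 with Mir300 overlapped.

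Mir654 had 0 counts in both libraries, whichever strand was counted. The limit that a count of 0 allows, taken as 3 counts, came to 0.730 CPM for the deeper library (replicate 1) and 0.940 CPM for the other. The two-sided exact 95% intervals, as used for the levels of the other members, reached 0.897 and 1.16 CPM. This hairpin lies between Mir376c and Mir376b, both detected, and shares no 18-base stretch with another microRNA gene. Its GC content (47.6%) and folding energy (-23.8 kcal/mol) lay within the range of the detected members. Per base its folding energy (-0.283 kcal/mol) was weaker than in every detected member except Mir376a (-0.244 kcal/mol). Why Mir654 had 0 counts was not tested.

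**Figure D2:**
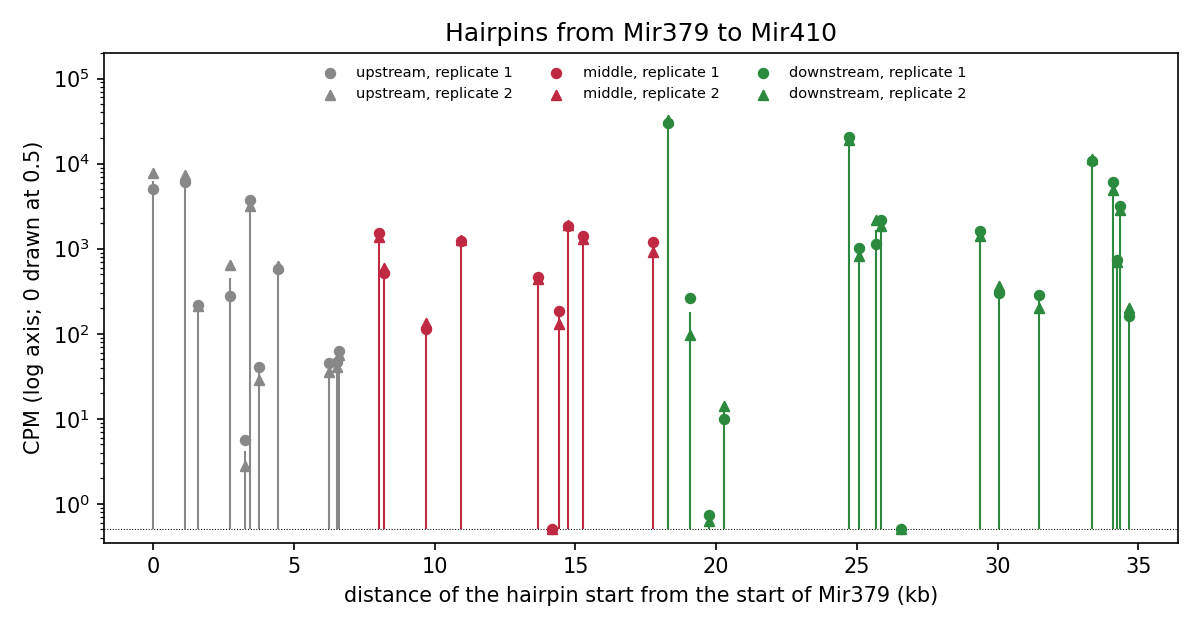
Level of each plus-strand hairpin from Mir379 to Mir410 in CPM (log axis, 0 drawn at 0.5) by the distance of its start from the start of Mir379 in kb. Circles are replicate 1, triangles replicate 2 and vertical lines run to the mean; the middle hairpins above 0 stay between 114 and 1916 CPM, while Mir487b next to them reaches 32818.

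Within the cluster the middle hairpins made up a small part of the counts. The cluster has 38 plus-strand hairpins, 11 before the first member, the 10 members and 17 after the last, and held 10.4% ± 0.299 of all counts (SD, n = 2). The members held 8.27% of the cluster's counts in replicate 1 (exact 95% interval 8.19 to 8.35%), while their share in replicate 2 was 7.56% (7.47 to 7.65%). The hairpins before them held 17.1% ± 1.96 and those after them 74.9% ± 1.46. Mir487b, Mir382 and Mir541 after the members held 59.3% ± 0.188 of the cluster's counts. Leaving out Mir487b alone raised the members' share to 11.3%. The order of the 3 shares was the same in both libraries. No p is given for it, since an exact two-sided sign-flip test over 2 libraries cannot go below p = 0.5.

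The range of levels is described for the middle and both ends, with no test of a difference. Among its 9 detected members mean CPM ran from 125 to 1877. It ran from 34.7 to 6689 CPM in the 10 detected hairpins before them and from 12.0 to 31244 CPM in the 15 detected after them. The median log2(CPM + 1) over all 10 members was 9.62 in replicate 1 and 9.53 in replicate 2, or 9.58 ± 0.06 (SD, n = 2). It was 7.75 ± 0.02 for the 11 hairpins before the members, 9.83 ± 0.21 for the 17 after them and 6.93 ± 0.11 for the 406 detected genes. The members' median thus lay near that of the hairpins after them, although 3 of those stood above 10000 CPM by mean and no member did.

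The hairpins on either side of both borders of the middle were far apart in level, but such steps were not particular to the borders. Elsewhere in the cluster, Mir323 (3463 CPM by mean) is followed by Mir758 (34.7 CPM), and Mir544 (12.0 CPM) by Mir382 (19697 CPM). Mir1193, 1293 bases before Mir666, had 257 counts (62.5 CPM) in replicate 1 and 181 counts (56.7 CPM) in replicate 2. Mir666 had 24.6 times its counts in replicate 1 and 24.1 times in replicate 2. At the other border Mir487b begins 436 bases after Mir381 and had 29670 and 32818 CPM, which was 24.9 times the counts of Mir381 in replicate 1 and 35.9 times in replicate 2. Before the members the most abundant hairpins were Mir411 (6689 ± 866 CPM), Mir379 (6333 ± 1894 CPM) and Mir323 (3463 ± 455 CPM). After them these were Mir487b, Mir382 (19697 ± 1027 CPM) and Mir541 (11021 ± 377 CPM).

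Outside the members, the detected genes nearest to Mir376a in level over both libraries were Mir708 (1880 CPM in replicate 1 and 1855 in replicate 2), Mirlet7c-2 (1762 and 1944) and Mir138-2 (2040 and 1868). Their distances from it in log2(CPM + 1) over the 2 libraries were 0.06, 0.06 and 0.15. With 2 libraries, nearness is a matter of level only.

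**Figure D3:**
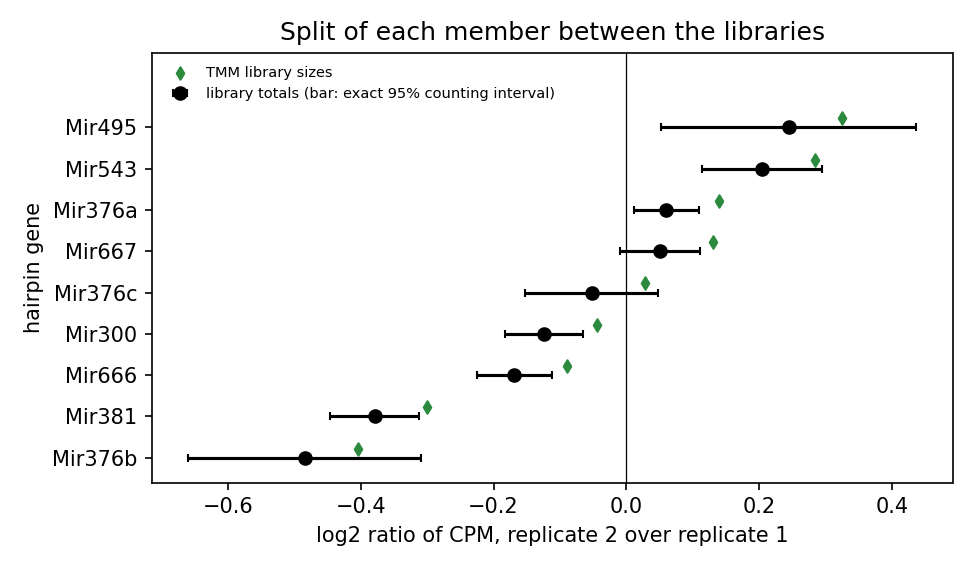
Log2 ratio of CPM, replicate 2 over replicate 1, for the 9 detected members (horizontal axis; genes on the vertical axis). Black points use library totals and have exact 95% counting intervals, and green diamonds use TMM library sizes; Mir376b and Mir381 lie lowest, at -0.48 and -0.38, and Mir495 highest, at 0.24.

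The 9 detected members differed little between the libraries, and in both directions. The split of each gene's counts over the libraries was compared with that of the totals by an exact binomial test, two-sided, with Benjamini-Hochberg adjustment over the 406 detected genes. Such a test compares 2 libraries by read sampling only and says nothing of conditions. By this test 7 of the 9 differed, 3 higher and 4 lower in replicate 2. Over all detected genes 58.1% differed, 23.4% higher and 34.7% lower. Among the 291 genes with at least 50 counts in each library, which include the 9 members, 74.6% differed, and again 7 members did. Mir381 was lower in replicate 2 by a log2 ratio of -0.38 (exact 95% interval -0.45 to -0.31; adjusted p = 4.32e-29, exact binomial test). Mir376b was lower by -0.48 (-0.66 to -0.31; adjusted p = 7.17e-08, exact binomial test). Mir666 (-0.17) and Mir300 (-0.12) were lower as well, while Mir543 (0.20), Mir495 (0.24) and Mir376a (0.06; adjusted p = 0.0293, exact binomial test) were higher. Mir667 (0.05) and Mir376c (-0.05) did not pass.

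Scaling by TMM raised all log2 ratios by 0.08. Then 7 members also passed, but 4 were higher and 3 lower in replicate 2, against 54.4% of the detected genes, 27.3% higher and 27.1% lower. Mir667 now passed as higher and Mir300 no longer passed (adjusted p = 0.200, exact binomial test), and the ratio of Mir376c turned to 0.03. For Mir376a the call was lost when every gene with a count was tested (adjusted p = 0.0519, exact binomial test). Mir300 also failed with DESeq2 size factors (adjusted p = 0.236, exact binomial test). Mir495 and Mir376a failed at an adjusted p under 0.01. The ratios of Mir381, Mir376b and Mir666 stayed below 0 and that of Mir543 above 0, all past the test in all 7 settings.

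**Figure D4:**
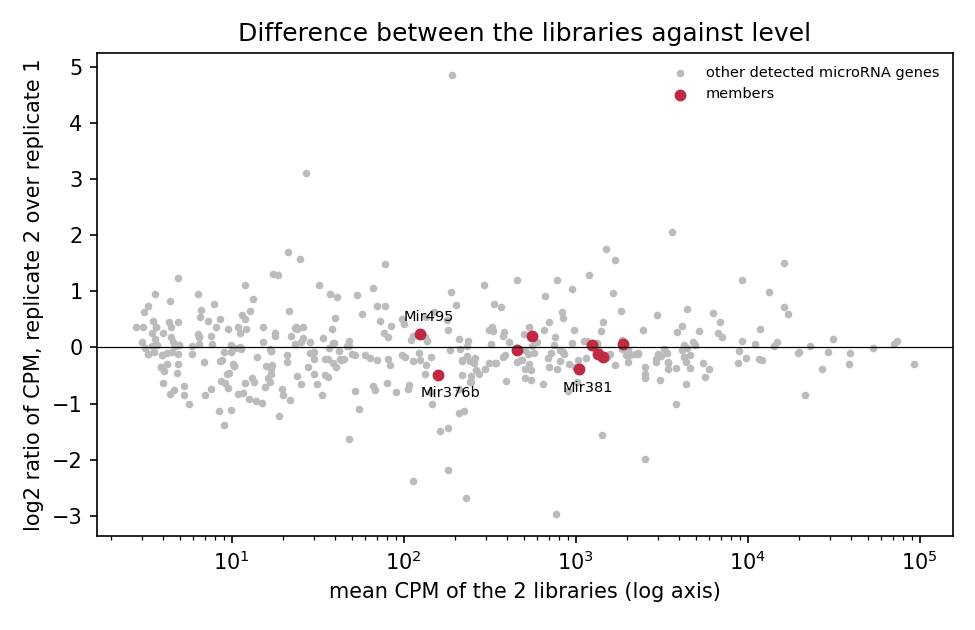
Log2 ratio of CPM, replicate 2 over replicate 1 (vertical axis), against the mean CPM of the 2 libraries (log axis) for the 406 detected microRNA genes. Members are red and the 3 farthest from 0 are named; all 9 lie between -0.48 and 0.24, while the detected genes run from -2.97 to 4.86.

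The differences were small in size. All 9 detected members lay within 2-fold, as did 366 of the 406 detected genes. Their median absolute log2 ratio was 0.17, against 0.30 over all detected genes, 0.27 over the detected hairpins before them and 0.28 over those after them. These medians were not matched for level. The lowest mean CPM was 125 among the detected members, 34.7 before them, 12.0 after them and 2.78 over all detected genes. Mir376b had the largest ratio in size, and 66.7% of the detected genes had a smaller one. The biological coefficient of variation over the detected genes was 0.307. It describes a spread between the libraries beyond read sampling, which the binomial test leaves out.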

How the data were processed

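For each microRNA gene the deposited files hold raw counts in 3 columns (strand ignored, strand of the gene, opposite strand), after 4 rows for reads in no gene. The build (mm10) and annotation (GENCODE M21) are named in descriptions deposited with them; how reads were aligned and counted is not given in the sources used here. All 2202 gene IDs matched GENCODE M21. Gene-strand counts were used, and CPM refers to the sum over gene rows. Detection required 10 or more counts in both libraries. Cluster hairpins are the plus-strand microRNA genes from Mir379 to Mir410, split by position around the members. Shared stretches were searched in GENCODE hairpins on both strands, folding energies are from RNAfold 2.7.2, and mature sequences and seeds are from RefSeq.

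Exact binomial tests were computed with scipy 1.17.1. With 2 libraries of 1 group edgeR's quasi-likelihood test has no contrast, so edgeR 4.0.16 gave only TMM sizes and the dispersion (intercept only), and DESeq2 1.42.0 only size factors, both over detected genes. Alternatives were the counts that ignore strand, other library totals, count minimums, pseudocounts, an adjusted p under 0.01, and leaving out a replicate or a leading gene. The text names all 10 members, the 3 leading hairpins on each side, the hairpins bordering the members, and the 3 genes nearest in level to the most abundant member and most abundant miR-376 paralog, which were both Mir376a. The members and lists were chosen with earlier results of these data known, and the gene pairs for within-library ratios after the levels were seen.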

Additional observations from a re-analysis of the deposited data

How the results depend on the processing

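Of 24 summary values under alternatives other than a left-out replicate, 13 stayed within the tolerance (1 SD, or 1.5 times for counts) and 11 moved. Ignoring strand, which sets Mir376a to 0, gave the members 0.685% of all counts, 6.65% of the cluster's counts, a median log2(CPM + 1) of 9.08 and a miR-376 share of 9.57%, and left 8 members detected. Taking all reads as the library total gave 0.302% and a median of 8.13, which follows from the larger total. Without Mir376a the members held 0.640% of all counts and 6.23% of the cluster's counts, with a miR-376 share of 9.57%. Without Mir487b, and with detected members only (both chosen after seeing the data), the cluster share was 11.3% and the median 10.03. Between 5 and 7 members passed the split test over the settings, and 31.0% to 74.6% of the genes tested. The log2 ratio of Mir376c, not past the test, turned to 0.027 with TMM sizes and to 0.030 with DESeq2 size factors. Leaving out either replicate gave 0.806 to 0.846% of all counts, 7.56 to 8.27% of the cluster's counts, 29.4 to 30.9% for the miR-376 share, a median of 9.53 to 9.62 and 9 detected members; with 2 libraries such values cannot move by more than 1 SD and say nothing about stability. No paired analysis was possible because there is 1 group. Depth limits Mir654 to the bound given for 0 counts.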
